A study of Mus musculus with 33 samples.

Results

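The Notch genes described here were found by gene symbol in the count files and are 10 of the 24421 genes counted in each of 33 mouse samples. They are the ligands *Dll4* and *Jag1*, the receptors *Notch1*, *Notch2* and *Notch4*, the DNA-binding factor *Rbpj* and its coactivator *Maml2*, and the target genes *Hes1*, *Hey1* and *Nrarp*. No measured value was used to choose them by symbol, although they were proposed with earlier results of these data known. All 10 genes were listed in every file, some at 0 in single samples. The order of their levels, their change where a Cre targets *Zeb2* and the endothelial transcripts present in the same samples are given here.

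The study sorted Kupffer cells (KCs), the resident macrophages of the liver sinusoids, and alveolar macrophages (AMs), the resident macrophages of the lung airspaces, from C57Bl/6 mice aged 6 to 8 weeks and measured their RNA by bulk sequencing. All mice carried floxed *Zeb2* alleles (Zeb2 fl/fl), and *Zeb2* encodes a zinc finger transcription factor. CRE- KCs (n = 6) and CRE- AMs (n = 5) came from Zeb2 fl/fl mice without a Cre. The CRE+ KCs came from Clec4f-crexZeb2fl/fl animals, in which Cre is driven by a KC gene, and were sorted into Tim4+ cells (n = 6) and Tim4- cells (n = 6). In a reporter cross, the study also found this Cre active in a minor population of B cells. The CRE+ AMs came from Itgax-crexZeb2fl/fl animals, in which Cre is driven by the CD11c gene and is therefore also active in other CD11c-expressing cells, and were sorted into CD11b- cells (n = 5) and CD11b+ cells (n = 5). The sort on Tim4 or CD11b is thus part of every CRE+ group. CRE- cells were also sorted as KCs or AMs, but their labels name no Tim4 or CD11b gate. The marker gate and the loss of *Zeb2* cannot be told apart in a comparison with these CRE- cells.

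Notch receptors are transmembrane proteins that are cleaved when a ligand on a neighbouring cell binds them, and the released intracellular part enters the nucleus, where it binds the RBPJ protein on DNA together with a Mastermind-like coactivator and switches on genes of the Hes and Hey families. *Dll4* and *Notch4* are best known from endothelial cells, and DLL4 on liver sinusoidal endothelial cells is known as one of the signals that induce the KC programme in cells entering the liver. A macrophage sample that carries endothelial RNA will therefore contain ligand and receptor transcripts of both cell types, while *Hes1* and *Hey1* report on any cell that receives the signal.

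Each sample had between 9837240 and 24332306 counts in genes (median 20683608). The lowest depth belonged to KC Tim4- replicate 1, which also resembled its own group least, with a mean correlation of 0.911 with the other 5 Tim4- samples against 0.932 to 0.939 for those. Values that rest on this library are given with and without it. Levels are given as CPM, which are counts scaled to library size with the TMM factors of all 33 samples, and fold changes on the log2 scale. *Zeb2* itself fell in every CRE+ group against CRE- cells of the same tissue, from 283 ± 38.7 CPM (SD, n = 6) to 175 ± 25.9 in the Tim4+ group and 170 ± 16.3 in the Tim4- group of KCs, and from 194 ± 16.3 CPM (n = 5) to 105 ± 11.9 in CD11b- AMs and 62.1 ± 7.88 in CD11b+ AMs. By genomic PCR, the study found some of its CRE+ KCs and AMs to be heterozygous for the *Zeb2* deletion. It also described a truncated *Zeb2* mRNA made from the deleted allele. The CRE+ groups may therefore mix *Zeb2* genotypes, and the share of cells without *Zeb2* was not tested. The cell labels held for the defining genes, since *Clec4f* lay between 10270 and 12110 CPM in CRE- KCs and at most at 0.39 CPM in CRE- AMs, and *Car4* lay between 399 and 634 CPM in CRE- AMs and at 0 in all 6 CRE- KC samples.

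Divided by exon length, so that genes can be compared with one another, the target gene *Hes1* had the highest level of the 10 genes in all 3 KC groups, with group means of 43.8 CPM per kb in CRE-, 36.5 in Tim4+ and 40.8 in Tim4- KCs. *Notch2* had the highest level in all 3 AM groups, with 12.3 CPM per kb in CRE-, 10.1 in CD11b- and 11.8 in CD11b+ AMs. *Jag1* was the lowest of the 10 in CRE- KCs at 0.0331 CPM per kb, and *Notch4* the lowest in CRE- AMs at 0.0292 CPM per kb, next to *Hes1* at 0.0378. Among the 3 receptors, the order in every group was *Notch2*, then *Notch1*, then *Notch4*.

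**Figure D1:**
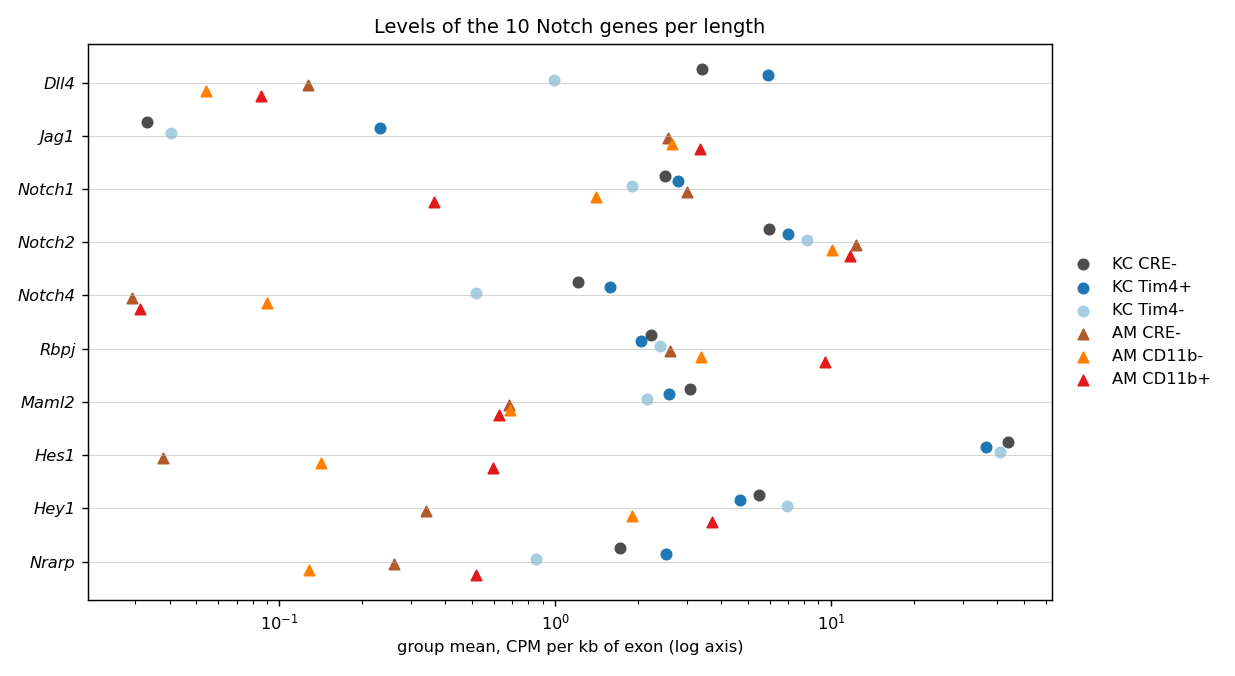
Group mean level of each Notch gene in CPM per kb of exon on a log axis, with circles for KC groups and triangles for AM groups. *Hes1* stood at 36.5 to 43.8 CPM per kb in the KC groups and at 0.0378 CPM per kb in CRE- AMs, whereas *Notch2* lay between 5.96 and 12.3 CPM per kb in all 6 groups.

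The first comparison was that of CRE- KCs with CRE- AMs, which sets the levels before *Zeb2* is lost. Of the 10 Notch genes, 6 were higher and 3 lower in KCs, against a background in which 33.3% of the 12145 genes tested were higher and 29.9% were lower. The median log2 fold change of the 10 was 2.46, against 0.03 over all genes tested. The 6 that were higher were the ligand *Dll4*, the receptor *Notch4*, the coactivator *Maml2* and all 3 target genes, and the 3 that were lower were the ligand *Jag1* and the receptors *Notch1* and *Notch2*. *Rbpj*, the DNA-binding factor of the pathway, had a log2 fold change of -0.22 ± 0.14 (SE) with overlapping ranges (edgeR quasi-likelihood test, Benjamini-Hochberg adjusted p = 0.189).

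The ligands were divided between the tissues. *Dll4* lay between 7.84 and 22.6 CPM in CRE- KCs (median 12.0), against 0, 1.32, 0.686, 0.0475 and 0.405 CPM in the 5 CRE- AM samples. Every KC sample was above every AM sample, with a ratio of means of 26.7 (95% counting interval 20.3 to 35.9) and a log2 fold change of 4.74 ± 0.65 (edgeR adjusted p = 1.58e-05). *Jag1*, the other ligand, lay at 13.2, 10.7, 15.96, 20 and 14.8 CPM in CRE- AMs and between 0 and 0.563 CPM in CRE- KCs (median 0.0475), where 2 of 6 samples had no count. Its ratio was 77.3 in favour of AMs (interval 52.4 to 119), with a log2 fold change of -6.20 ± 0.62 (edgeR adjusted p = 6.09e-07), so that the tissues did not overlap for either ligand. Counting intervals cover counting error only and not the spread between mice.

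Of the receptors, *Notch2* was at 131, 116, 117, 145 and 155 CPM in CRE- AMs and between 53.1 and 79.4 CPM in CRE- KCs (median 63.6), with no overlap and a log2 fold change of -1.04 ± 0.11 (edgeR adjusted p = 1.03e-06). *Notch1* ranges overlapped, at 29.9 to 42.5 CPM in KCs and 39.0 to 48.5 CPM in AMs, and its log2 fold change of -0.26 ± 0.11 passed narrowly (edgeR adjusted p = 0.0477). That call was lost, with adjusted p between 0.0649 and 0.123, when CRE- AM replicate 3, 4 or 5 or CRE- KC replicate 2, 4, 5 or 6 was left out, and with DESeq2 (adjusted p = 0.0985), RLE factors (0.0915), no filter on low counts (0.0612) or all 33 samples in the fit (0.117). *Notch4*, the receptor typical of endothelium, had 2.38 to 19.3 CPM in KCs (median 7.92), a wide range within one group, and 0.713, 0, 0.274, 0.190 and 0 CPM in AMs. Its log2 fold change was 5.31 ± 0.76 (edgeR adjusted p = 2.60e-05).

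*Hes1* separated the tissues most of the 10 genes. This transcriptional repressor, the classical Notch target, lay between 80.1 and 96.8 CPM in CRE- KCs (median 89.6), while the 5 CRE- AM samples had 0, 0.195, 0, 0.190 and 0 CPM, or 8 counts in all. The ratio of means was 1160 (95% counting interval 589 to 2690) and the log2 fold change 10.10 ± 0.30 (edgeR adjusted p = 1.15e-12). *Hey1*, a related repressor, had 13.7 to 28.4 CPM in KCs (median 16.1) and 1.07, 0.585, 1.83, 1.38 and 0.708 CPM in AMs, again with no overlap, and a log2 fold change of 4.0 ± 0.32 (edgeR adjusted p = 5.05e-08). *Nrarp*, a feedback inhibitor that is itself switched on by Notch, ranged from 1.21 to 8.43 CPM in KCs (median 4.21) and was at 0.0892, 0.0975, 1.14, 0.808 and 1.21 CPM in AMs, so that its groups met at their edges (log2 fold change 2.73 ± 0.67, edgeR adjusted p = 0.00261). *Maml2* was the co-factor that differed, with 16.4 to 24.6 CPM in KCs (median 19.8) against 3.25, 5.46, 5.21, 4.23 and 4.25 CPM in AMs and a log2 fold change of 2.19 ± 0.17 (edgeR adjusted p = 4.77e-08).

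**Figure D2:**
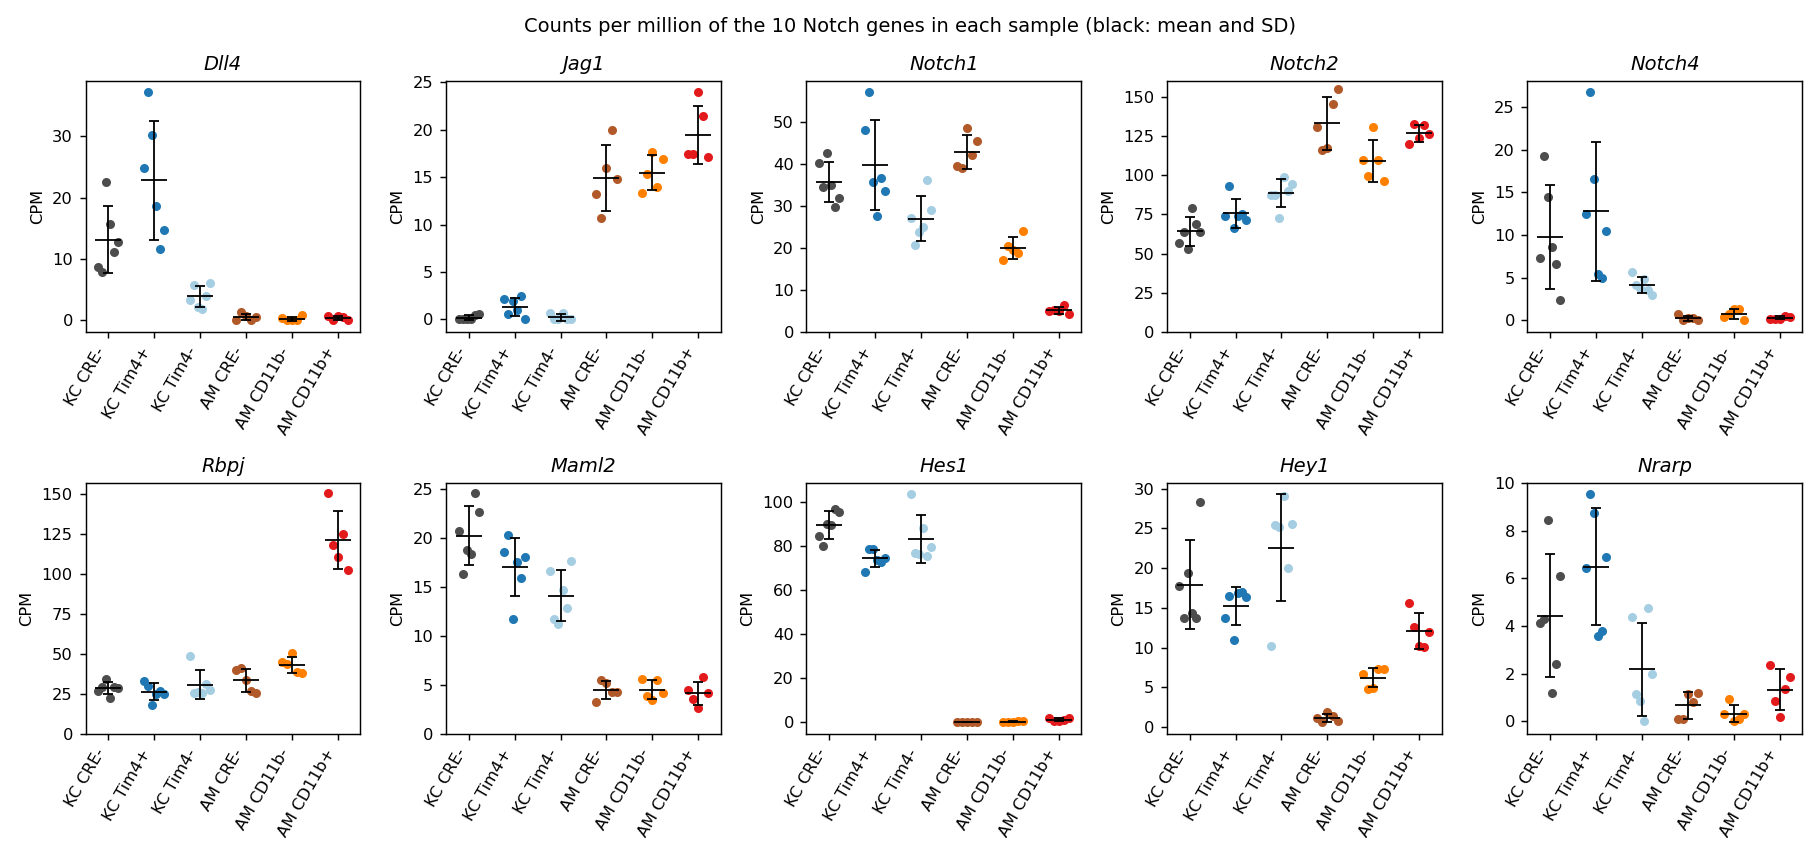
CPM of each of the 10 Notch genes in every sample of the 6 groups, with points for samples and lines for the group mean ± SD (n = 6 per KC group and 5 per AM group). *Hes1* was at 68.2 CPM or more in every KC sample and at most at 2.07 CPM in every AM sample, and *Jag1* was at least at 10.7 CPM in every AM sample and at most at 2.44 CPM in every KC sample.

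Endothelial RNA was present in the KC samples and has to be read beside these values. A list of 22 endothelial markers, 14 general and 8 typical of liver sinusoids, summed to between 925 and 3369 CPM in CRE- KCs and between 46.8 and 68.6 CPM in CRE- AMs. With edgeR, 21 of the 22 were higher in CRE- KCs. *Flt1* was lower, at 4.24 to 16.5 CPM in CRE- KCs and 37.4 to 62.9 CPM in CRE- AMs (log2 fold change -2.30, edgeR adjusted p = 2.13e-06). It made up most of the AM sum. All 22 were above a floor of 3 counts in every CRE- KC sample. The sinusoidal gene *Stab2* lay between 268 and 444 CPM there and at most at 0.0457 CPM in CRE- AMs, and *Clec4g* between 69.9 and 367 CPM against at most 0.0506 CPM. In these bulk samples, fewer cells of a type and less RNA per cell cannot be told apart, and the share of *Dll4*, *Notch4* or any other Notch transcript that came from endothelial cells was not tested. Hepatocyte markers also differed between the tissues, at 194 to 540 CPM in CRE- KCs and at most 0.86 CPM in AMs.

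The second comparison set the CRE+ KCs, in which Cre targets *Zeb2*, against CRE- KCs. In Tim4+ KCs against CRE- KCs, 0 of the 10 genes were higher (3 at an unadjusted p under 0.05, and 0 with limma-voom or DESeq2) and 1 was lower, where 3.63% of the 12500 genes tested were higher and 2.46% lower. The median log2 fold change of the 10 was 0.18, against -0.00 over all genes. The gene that fell was *Hes1*, from 80.1 to 96.8 CPM (median 89.6) in CRE- KCs to 68.2 to 78.6 CPM (median 73.9) in Tim4+ KCs. The groups did not overlap, yet the change was small, at -0.28 ± 0.08 log2 (edgeR adjusted p = 0.0400). The call was lost, with adjusted p from 0.0537 to 0.133, when any one of the 6 Tim4+ samples or CRE- replicate 3, 4, 5 or 6 was left out.

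The other 9 genes did not pass in Tim4+ KCs. *Dll4* had a log2 fold change of 0.78 ± 0.32 (edgeR adjusted p = 0.198), at 11.6 to 37.2 CPM (median 21.7) in Tim4+ cells against 7.84 to 22.6 CPM in CRE- cells. The summed endothelial markers ranged higher in the same samples, at 1952 to 5730 CPM against 925 to 3369 CPM, although 0 of the 22 passed the edgeR test singly. At an unadjusted p under 0.05, 11 of the 22 were higher with edgeR and with limma-voom and 9 with DESeq2, which also called 1 after adjustment. *Jag1* stood at 0.0919 to 2.44 CPM in Tim4+ KCs (median 1.42) and at 0 to 0.563 CPM in CRE- KCs, a log2 fold change of 2.74 ± 1.12 on very few counts (edgeR adjusted p = 0.190). In the fit of all 33 samples *Jag1* passed (2.75 log2, edgeR adjusted p = 0.00857) and *Hes1* did not (-0.27 log2, adjusted p = 0.579), so that the gene called was another. The receptors *Notch1*, *Notch2* and *Notch4* had 0.14, 0.21 and 0.37 log2. *Rbpj* and *Maml2* had -0.13 and -0.27, and the targets *Hey1* and *Nrarp* had -0.25 and 0.53.

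In Tim4- KCs against CRE- KCs, 1 of the 10 genes was higher and 3 were lower, where 12.2% of genes tested were higher and 13.2% lower. The median of the 10 was -0.27, against -0.03 over all genes. *Notch2* was the gene that rose, and *Dll4*, *Notch4* and *Maml2* fell. Against Tim4+ KCs, Tim4- KCs had 0 of the 10 genes higher (2 at an unadjusted p under 0.05, and 0 with limma-voom or DESeq2) and 3 lower, where 3.84% of genes were higher and 7.62% lower, and these 3 were *Dll4*, *Notch4* and *Notch1*. The median there was -0.42, against 0.01 over all genes. The KC comparisons share samples pairwise, so that their counts are not independent of one another.

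*Dll4* showed the clearest change in KCs. It lay between 1.84 and 6.07 CPM in Tim4- KCs (median 3.62), below every CRE- sample and every Tim4+ sample. The log2 fold change was -1.79 ± 0.34 against CRE- KCs (edgeR adjusted p = 0.000584) and -2.57 ± 0.35 against Tim4+ KCs (adjusted p = 5.74e-05), or 3.43-fold and 5.98-fold lower means. *Notch4* lay between 2.99 and 5.61 CPM in Tim4- KCs (median 3.97), within the range of CRE- KCs (2.38 to 19.3 CPM) and overlapping that of Tim4+ KCs (4.97 to 26.8 CPM, median 11.5). Its log2 fold change was -1.26 ± 0.42 against CRE- KCs (edgeR adjusted p = 0.0327) and -1.63 ± 0.42 against Tim4+ KCs (adjusted p = 0.0144). The first *Notch4* call was lost without CRE- replicate 2 or 3 or Tim4- replicate 2, 3, 5 or 6 (adjusted p from 0.0537 to 0.102), and the second without Tim4+ replicate 2 (adjusted p = 0.0575). Both were lost with limma-voom (adjusted p = 0.173 and 0.0839), and the first also in the fit of all 33 samples (edgeR adjusted p = 0.0874). The other ligand, *Jag1*, was between 0 and 0.714 CPM in Tim4- KCs and did not pass, with 0.09 log2 against CRE- KCs and -2.65 against Tim4+ KCs (edgeR adjusted p = 0.146). In the fit of all 33 samples the second difference passed (-2.84 log2, adjusted p = 0.00672).

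The other 2 receptors moved in different comparisons. *Notch2* was between 72.8 and 98.9 CPM in Tim4- KCs (median 88.7) against 53.1 to 79.4 CPM in CRE- KCs, a rise of 0.44 ± 0.10 log2 in which the ranges still touched (edgeR adjusted p = 0.00321). *Notch1* was between 20.8 and 36.3 CPM in Tim4- KCs (median 26.0) and between 27.6 and 57.1 CPM in Tim4+ KCs (median 36.1). It was lower in Tim4- than in Tim4+ cells by -0.56 ± 0.16 log2 (edgeR adjusted p = 0.0255), and its difference from CRE- KCs was -0.42 ± 0.16 (adjusted p = 0.0580), which passed without Tim4- replicate 5 (-0.53, adjusted p = 0.0198) and in the fit of all 33 samples (-0.40, adjusted p = 0.0332). Against Tim4+ KCs *Notch2* had 0.23 log2 (edgeR adjusted p = 0.170). The *Notch1* call was lost without Tim4- replicate 2, 3 or 4 or Tim4+ replicate 1 or 2 (adjusted p from 0.0532 to 0.0889), and without Tim4+ replicate 2 only 1 of the 3 calls, that of *Dll4*, was left.

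Among the co-factors, *Maml2* fell to 11.2 to 17.7 CPM in Tim4- KCs (median 13.8) from 16.4 to 24.6 CPM in CRE- KCs, with overlapping ranges (-0.54 ± 0.15 log2, edgeR adjusted p = 0.0123). *Rbpj* had a log2 fold change of 0.08 (adjusted p = 0.756), with 1 Tim4- sample, replicate 1, at 48.3 CPM and a group median of 26.5 CPM. When each sample was left out in turn, the *Rbpj* value lay between -0.09 and 0.14 log2. Against Tim4+ KCs neither co-factor passed, with 0.22 for *Rbpj* and -0.27 for *Maml2*, nor did *Hes1* at 0.16 log2. The targets *Hes1* and *Hey1* did not pass, at -0.13 and 0.32 log2 against CRE- KCs. Without Tim4- replicate 1, the shallow library, *Hes1* passed against CRE- KCs at -0.20 log2 (edgeR adjusted p = 0.0410), and *Hey1* passed against Tim4+ KCs at 0.72 log2 (adjusted p = 0.0105) in place of 0.57 (adjusted p = 0.0951). *Nrarp* was spread widely, from 0 to 4.77 CPM in Tim4- KCs and from 3.56 to 9.53 CPM in Tim4+ KCs, and its log2 fold change of -1.59 did not pass (edgeR adjusted p = 0.102), whereas it passed with DESeq2 (-1.57, adjusted p = 0.0478) and limma-voom (-2.64, adjusted p = 0.0338). Against CRE- KCs *Nrarp* had -1.06 log2 (edgeR adjusted p = 0.218).

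The endothelial markers moved with these changes. Their sum was between 588 and 855 CPM in Tim4- KCs, below every CRE- sample (925 to 3369 CPM) and every Tim4+ sample (1952 to 5730 CPM), and 13 of 14 general and 8 of 8 sinusoidal markers were lower in Tim4- KCs in both comparisons. Their median log2 fold changes against CRE- KCs were -1.57 and -1.50, beside -1.79 for *Dll4* and -1.26 for *Notch4*, and against Tim4+ KCs both were -2.13, beside -2.57 and -1.63. No defining endothelial marker was at 0 in any KC group, since *Stab2* was at 70.9 CPM or more and *Kdr* at 60.3 CPM or more in every Tim4- sample. Monocyte markers were at 346 to 858 CPM in Tim4- KCs, 99.4 to 355 CPM in Tim4+ KCs and 79.0 to 301 CPM in CRE- KCs, and KC markers at 9254 to 10940, 13270 to 14870 and 23230 to 25600 CPM, and the part of these in the Notch values was not tested. B cell markers summed to 51.8 to 124, 23.1 to 57.9 and 49.6 to 92.4 CPM in the same order. T cell markers summed to 2.53 to 37.5, 6.31 to 16.9 and 3.86 to 6.71 CPM. Their part in the Notch values was not tested either.

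With the summed endothelial level as a covariate in the KC fit, 0 of the 10 genes passed in any of the 3 KC comparisons. *Dll4* was then at -0.99 log2 in Tim4- against CRE- KCs (edgeR adjusted p = 0.183) and at -1.40 against Tim4+ KCs (adjusted p = 0.326). *Notch4* turned direction, to 1.06 (adjusted p = 0.0890) and 1.44 (adjusted p = 0.188). *Notch2* stayed near its value at 0.46 (adjusted p = 0.102) and *Maml2* was at -0.75 (adjusted p = 0.0566). The numbers of the 10 at an unadjusted p under 0.05 were 2 in Tim4+ and 4 in Tim4- against CRE- KCs and 3 in Tim4- against Tim4+ KCs. The share of all genes at that unadjusted threshold was not computed, so these numbers have no background to be read against. The endothelial level of Tim4- KCs did not overlap that of the other KCs, so that the covariate and the group cannot be told apart, and over all genes the number passing in the Tim4- comparisons fell from 3169 to 933 and from 1433 to 69. In Tim4+ against CRE- KCs it went from 761 to 781.

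Within groups the endothelial level did not vary together with every Notch gene. For *Notch4*, Pearson's r of log2 level with the endothelial level over 6 samples was 0.94 in CRE- KCs (exact permutation p = 0.0111, Spearman's rho 0.89, p = 0.0333), 0.90 in Tim4+ KCs (exact permutation p = 0.0125, rho 0.94, p = 0.0167) and 0.57 in Tim4- KCs (exact permutation p = 0.206). Without the 2 samples farthest from the median endothelial level, these were 0.89, 0.71 and 0.9987. For *Dll4*, r was 0.92 in Tim4+ KCs (exact permutation p = 0.00556, rho 1, p = 0.00278, r = 0.95 without 2 samples) but 0.20 in CRE- KCs and 0.07 in Tim4- KCs. Without 2 samples the latter were -0.50 and -0.16. *Hes1* had -0.62, 0.67 and 0.11 in CRE-, Tim4+ and Tim4- KCs, and -0.97, -0.87 and 0.98 without 2 samples, so that its sign turned in Tim4+ KCs. *Hey1* had -0.53, -0.40 and -0.09, and 0.03, -0.95 and -0.54 without 2 samples, so that its sign turned in CRE- KCs. The values for *Hes1*, for *Hey1*, for *Notch4* in Tim4- KCs and, outside Tim4+ KCs, for *Dll4* thus depend on which samples are included. In CRE-, Tim4+ and Tim4- KCs, *Notch1* had 0.71, 0.67 and -0.67, and *Nrarp* had 0.11, 0.81 and -0.11. Without 2 samples these were 0.52, 0.65 and -0.44, and 0.45, 0.49 and -0.20. Signs also turned, among others, for *Rbpj* in Tim4+ KCs (-0.11 to 0.83) and *Maml2* in Tim4- KCs (-0.47 to 0.88). None of the 28 relations computed passed Benjamini-Hochberg adjustment, with the lowest adjusted p at 0.117 for Pearson's r and 0.0778 for Spearman's rho (exact permutation tests, two-sided).

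**Figure D3:**
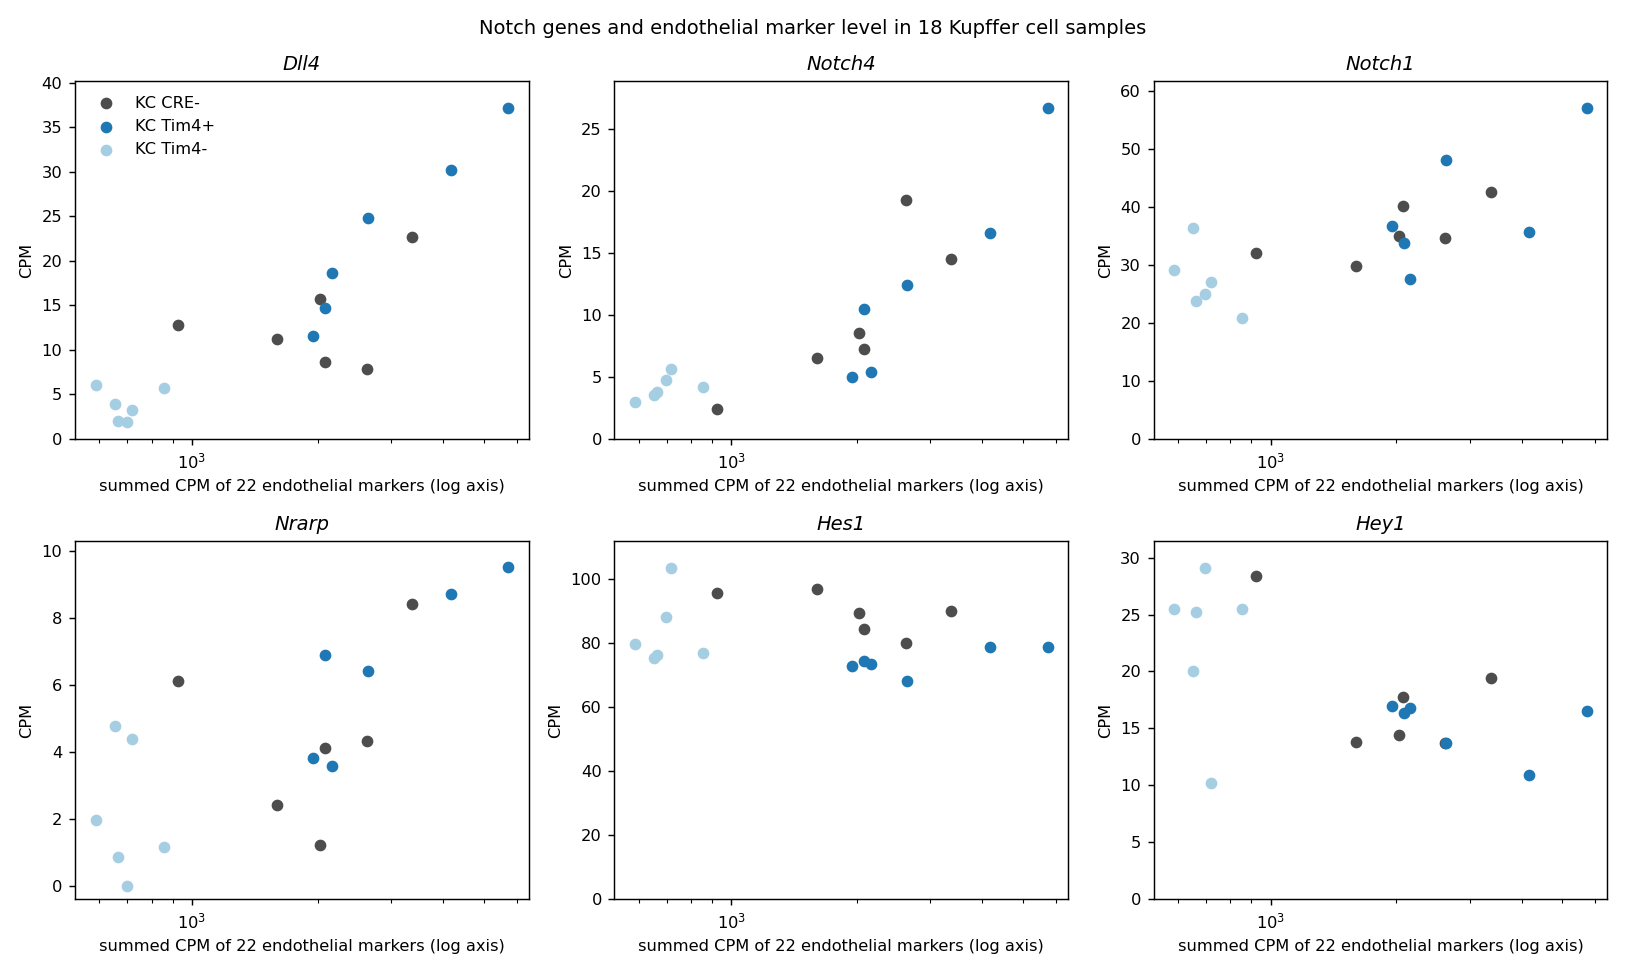
CPM of 6 Notch genes against the summed CPM of 22 endothelial markers (log axis) in the 18 KC samples, coloured by group. *Notch4* was high where the endothelial sum was high in CRE- (r = 0.94) and Tim4+ KCs (r = 0.90), *Dll4* in Tim4+ KCs (r = 0.92), and the Tim4- samples all sat to the left, at 588 to 855 CPM.

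The third comparison set the CRE+ AMs, in which Cre targets *Zeb2*, against CRE- AMs. In CD11b- AMs against CRE- AMs, 1 of 9 Notch genes tested was higher and 2 were lower, where 13.3% of the 11573 genes tested were higher and 12.4% lower. In CD11b+ AMs 3 of 9 were higher and 1 was lower, where 22.8% of genes were higher and 20.5% lower. Between the CRE+ groups, CD11b+ AMs had 2 of 9 higher and 1 lower than CD11b- AMs, where 19.8% were higher and 16.6% lower. The median log2 fold changes of the 9 genes were -0.00, 0.37 and 0.64, against 0.00, -0.01 and 0.02 over all genes. *Notch4* was below the count filter in AMs, with at most 1.33 CPM in any AM sample. The CD11b- and CD11b+ groups share the CRE- AM controls.

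*Notch1* fell in both CRE+ groups. It was at 39.5, 39.0, 48.5, 42.2 and 45.4 CPM in CRE- AMs, 17.1, 20.6, 19.5, 18.9 and 24.0 CPM in CD11b- AMs, and 4.999, 5.28, 4.90, 6.48 and 4.23 CPM in CD11b+ AMs. No 2 of the 3 groups overlapped, with means 2.15-fold lower in CD11b- and 8.29-fold lower in CD11b+ AMs than in CRE- AMs. The log2 fold changes were -1.11 ± 0.12 in CD11b- (edgeR adjusted p = 1.08e-06), -3.06 ± 0.13 in CD11b+ (adjusted p = 3.44e-13) and -1.96 ± 0.13 between them (adjusted p = 1.02e-09). *Notch2* had a log2 fold change of -0.29 ± 0.09 in CD11b- AMs (edgeR adjusted p = 0.0200), which was lost without CD11b- replicate 2 or 5 or CRE- replicate 4 or 5 (adjusted p from 0.0508 to 0.0667) and in the fit of all 33 samples (adjusted p = 0.0554), and of -0.08 in CD11b+ AMs (adjusted p = 0.475). Between the CRE+ groups it was 0.21 (edgeR adjusted p = 0.0747), which passed without CD11b- replicate 3 (0.28, adjusted p = 0.0143).

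*Rbpj* was at 39.8, 41.0, 33.6, 26.9 and 25.5 CPM in CRE- AMs, 44.6, 43.7, 50.3, 38.8 and 37.9 CPM in CD11b- AMs and 150, 118, 110, 125 and 102 CPM in CD11b+ AMs. Every CD11b+ sample was above every other AM sample, and the CD11b+ mean was 3.63-fold the CRE- mean (1.84 ± 0.14 log2, edgeR adjusted p = 9.20e-10; 1.48 ± 0.13 against CD11b- AMs, adjusted p = 5.30e-08). In CD11b- AMs the log2 fold change was 0.36 (adjusted p = 0.0530), which lay just above the threshold and passed without CD11b- replicate 5 or CRE- replicate 1 or 2 (adjusted p from 0.0204 to 0.0474), with DESeq2 (adjusted p = 0.0319), with 10 counts required in every sample (adjusted p = 0.0448) and with no filter on low counts (adjusted p = 0.0499). *Maml2* had -0.00 and -0.14 log2 in CD11b- and CD11b+ AMs and -0.13 between them, so that the co-factors did not move together.

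Of the target genes, *Hey1* rose stepwise, from 1.07, 0.585, 1.83, 1.38 and 0.708 CPM in CRE- AMs to 6.64, 4.82, 4.94, 7.33 and 7.29 CPM in CD11b- AMs and 15.6, 12.53, 10.2, 10.1 and 12.0 CPM in CD11b+ AMs. No 2 of these groups overlapped. The log2 fold changes were 2.45 ± 0.27 in CD11b- (edgeR adjusted p = 1.66e-06), 3.41 ± 0.28 in CD11b+ (adjusted p = 4.34e-09) and 0.95 ± 0.24 between them (adjusted p = 0.00467). *Hes1* was at 2.07, 0.558, 0.417, 1.16 and 1.85 CPM in CD11b+ AMs, or 8 to 34 counts, above every CRE- AM sample. Its ratio to CRE- AMs was 15.7 (95% counting interval 7.99 to 36.5) and its log2 fold change 3.86 ± 1.04 (edgeR adjusted p = 0.00508), while every KC sample was at 68.2 CPM or more. In CD11b- AMs *Hes1* was at 0, 0.123, 0.0466, 0.635 and 0.641 CPM and did not pass (log2 fold change 1.81, adjusted p = 0.236). Between the CRE+ groups *Hes1* had 2.06 log2 (edgeR adjusted p = 0.0881), which passed with limma-voom (adjusted p = 0.0258) and in the fit of all 33 samples (adjusted p = 0.00111). *Nrarp* did not pass in any AM comparison, with -0.98 log2 in CD11b- AMs, 0.97 in CD11b+ AMs (edgeR adjusted p = 0.376) and 1.95 between them (adjusted p = 0.0885), of which the last passed without CD11b- replicate 2 (2.85, adjusted p = 0.0300).

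The ligands did not pass in AMs with edgeR. *Jag1* was at 13.3, 15.3, 17.7, 13.97 and 16.9 CPM in CD11b- AMs and 17.4, 17.5, 23.9, 21.4 and 17.2 CPM in CD11b+ AMs, with log2 fold changes of 0.04 (edgeR adjusted p = 0.889) and 0.37 (adjusted p = 0.0652). The second passed without CRE- replicate 4, at 0.49 log2 (adjusted p = 0.0138), and with limma-voom, at 0.39 log2 (adjusted p = 0.0466). Between the CRE+ groups *Jag1* had 0.33 log2 (edgeR adjusted p = 0.111). *Dll4* was at most at 1.32 CPM in any AM sample, with -1.22, -0.59 and 0.64 log2 in these comparisons on very few counts. Beside these values, the endothelial list summed to 56.8 to 94.7 CPM in CD11b- AMs and 165 to 199 CPM in CD11b+ AMs against 46.8 to 68.6 CPM in CRE- AMs. Most of the CD11b+ sum was *Flt1* (125 to 149 CPM) and *Lyve1* (24.4 to 38.5 CPM), while *Stab2* was at 0 in 5 of 5 and *Clec4g* at 0 in 4 of 5 CD11b+ samples and *Kdr* was at most 1.74 CPM. Monocyte markers summed to 87.2 to 284 CPM in CD11b+, 11.4 to 24.4 CPM in CD11b- and 3.89 to 10.4 CPM in CRE- AMs. Neutrophil markers summed to 176 to 313, 121 to 223 and 44.7 to 67.5 CPM in the same order. Of the 5 neutrophil markers counted, 4 were above the floor of counts in every CD11b+ sample. In CD11b- AMs only 2 of the 5 were above it in any sample, so that the sum there rests mainly on 2 genes. In CRE- AMs 1 was above it in every sample and 4 in at least 1 sample. The part of either marker list in the rise of *Rbpj*, *Hes1* and *Hey1* and the fall of *Notch1* was not tested.

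**Figure D4:**
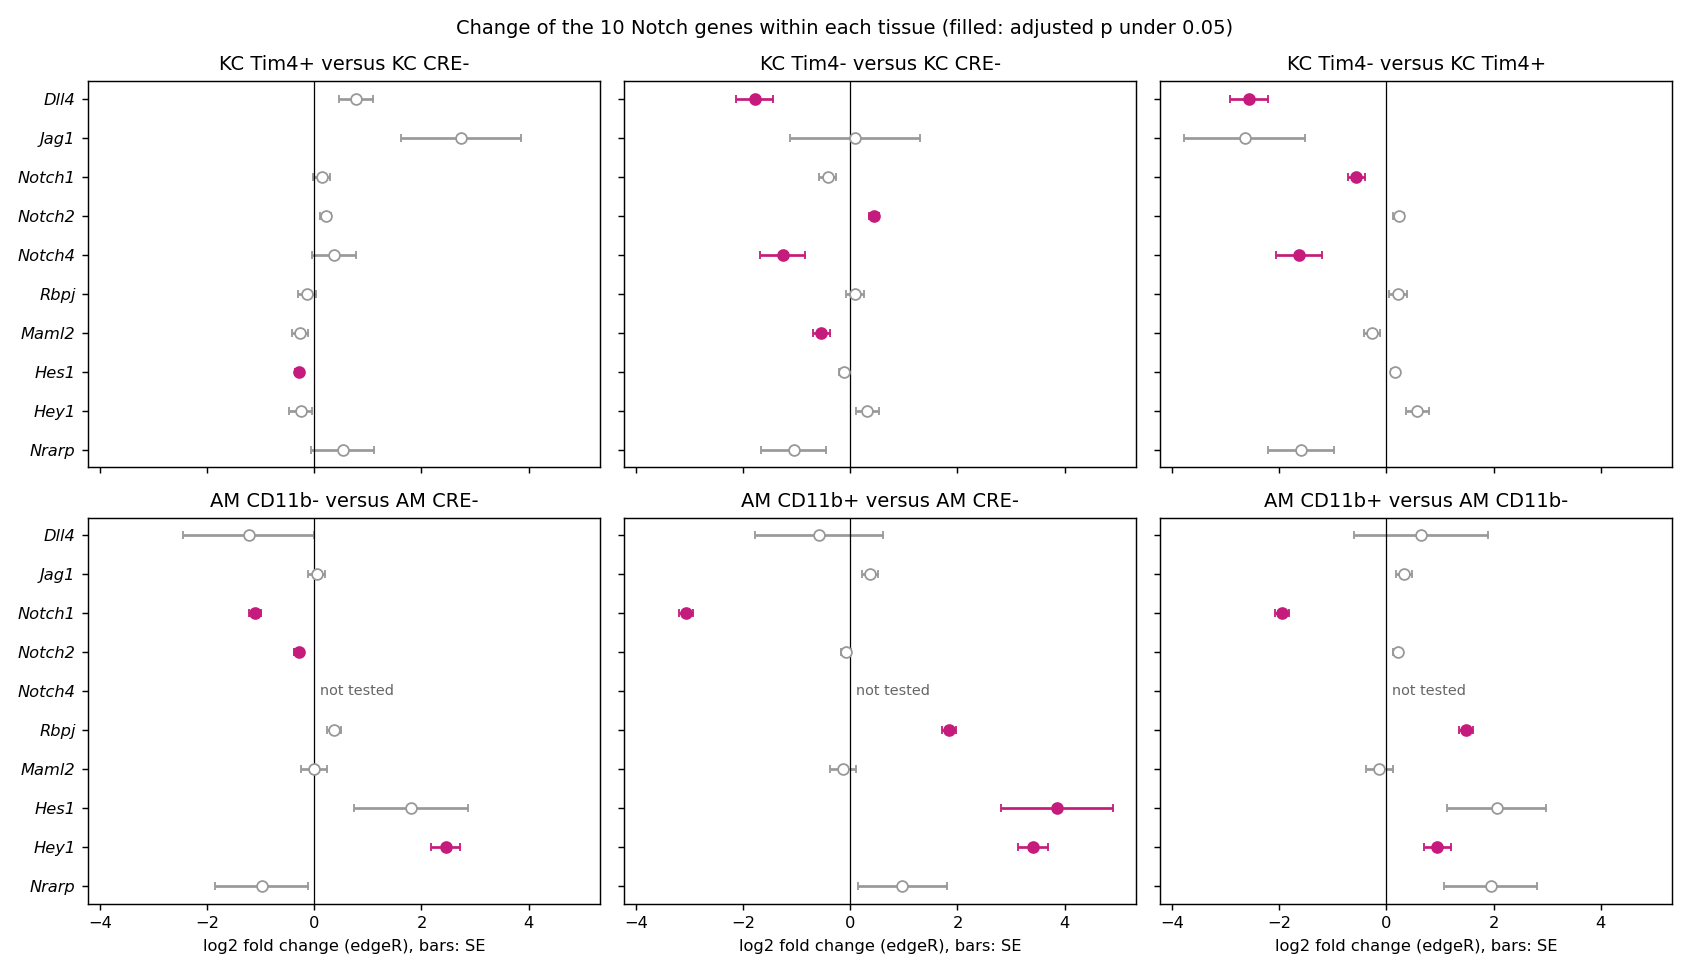
Log2 fold change ± SE of each Notch gene in the 6 comparisons within a tissue, with filled symbols where the edgeR adjusted p was under 0.05. *Dll4* (-1.79 and -2.57) and *Notch4* (-1.26 and -1.63) stood out in the 2 comparisons of Tim4- KCs, and *Notch1* (-3.06), *Rbpj* (1.84), *Hes1* (3.86) and *Hey1* (3.41) in CD11b+ AMs.

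Whether the response differed between tissues was tested directly, as the mean CRE+ against CRE- change in KCs less that in AMs. It differed for 5 of the 10 genes, 2 with a positive and 3 with a negative difference, where 10% of the 13294 genes tested were positive and 9.52% negative. The median difference of the 10 was -0.29, against 0.01 over all genes. *Notch1* differed by 1.95 ± 0.18 log2 (edgeR adjusted p = 7.86e-10), *Hey1* by -2.89 ± 0.31 (adjusted p = 1.41e-08), *Rbpj* by -1.12 ± 0.20 (adjusted p = 5.39e-05), *Hes1* by -3.00 ± 0.67 (adjusted p = 0.00119) and *Notch2* by 0.52 ± 0.12 (adjusted p = 0.00166). *Hes1* started from 8 counts in CRE- AMs, so that its difference rests on very low AM values. *Dll4*, which fell in Tim4- KCs, had a difference of 0.40 (adjusted p = 0.826) over the mean of both CRE+ groups. *Jag1* (1.12), *Notch4* (-1.23), *Nrarp* (-0.26) and *Maml2* (-0.33) did not pass either. Tissue, Cre driver and sort gate cannot be told apart in this test, which gave both CRE+ groups of a tissue equal weight. *Zeb2* means were 0.62 and 0.60 of the CRE- mean in Tim4+ and Tim4- KCs, and 0.54 and 0.32 in CD11b- and CD11b+ AMs.

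Promoter sequences are shown for *Rbpj* and *Notch1*, the factor and the receptor that moved in opposite directions in CD11b+ AMs, and for *Dll4*, which fell in Tim4- KCs. Each is the RefSeq window of 250 bases before to 50 after a start site, on GRCm38.p6 and written 5' to 3' along the gene's strand. Capitals mark TGGGAA (the core bound by RBPJ, read as TTCCCA on the other strand), CACCTG (an E-box of the kind bound by ZEB proteins) and CACNAG (the N-box of HES repressors), searched on both strands. The *Rbpj* window is chr5:53590096-53590395 (+) and the *Notch1* window chr2:26503773-26504072 (-), each inside the annotated gene span, and the *Dll4* window is chr2:119325534-119325833 (+), around the annotated start of the gene.
Rbpj: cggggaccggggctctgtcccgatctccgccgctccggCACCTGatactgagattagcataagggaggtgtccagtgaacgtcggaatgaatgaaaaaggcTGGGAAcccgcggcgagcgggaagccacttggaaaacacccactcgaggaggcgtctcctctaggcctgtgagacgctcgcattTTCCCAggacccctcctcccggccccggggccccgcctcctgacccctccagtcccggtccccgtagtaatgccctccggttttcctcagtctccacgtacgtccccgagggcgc
Notch1: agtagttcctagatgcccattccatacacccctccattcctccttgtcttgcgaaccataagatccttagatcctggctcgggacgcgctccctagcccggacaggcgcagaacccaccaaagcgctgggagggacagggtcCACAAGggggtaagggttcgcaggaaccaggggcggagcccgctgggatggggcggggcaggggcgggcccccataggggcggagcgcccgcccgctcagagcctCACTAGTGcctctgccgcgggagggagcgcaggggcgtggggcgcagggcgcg
Dll4: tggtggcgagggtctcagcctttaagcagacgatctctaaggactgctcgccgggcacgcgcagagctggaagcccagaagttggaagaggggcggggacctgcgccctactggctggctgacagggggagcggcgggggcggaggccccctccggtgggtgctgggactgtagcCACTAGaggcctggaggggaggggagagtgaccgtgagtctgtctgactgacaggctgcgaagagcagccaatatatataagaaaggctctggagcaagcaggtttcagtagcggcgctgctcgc
The *Rbpj* window held CACCTG once and TGGGAA on each strand, and its second RefSeq window overlaps the first and shares one of these. The *Notch1* and *Dll4* windows held only CACNAG. Of 32851 RefSeq promoters of this length, 25.6% held TGGGAA, 20.2% CACCTG and 42.5% CACNAG, so that each of these motifs is common. The longer form GTGGGAA, found in 6.38% of promoters, was in none of the windows of the 8 Notch genes with an entry, and *Hes1* and *Hey1* were not among the 8.

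In the annotation of the same build, *Dll4* (chr2:119325784-119335962) and *Hes1* (chr16:30064384-30067796) lie on the plus strand and *Hey1* (chr3:8663359-8667256) and *Notch1* (chr2:26457903-26516663) on the minus strand. *Rbpj* (chr5:53466152-53657362) and *Notch4* (chr17:34564268-34588503) are on the plus strand. Annotated exons on the opposite strand overlap those of *Dll4*, *Notch1* and *Nrarp*. Of these antisense genes, *Gm14207*, opposite *Dll4*, was counted in the files and was at most at 1.12 CPM in any KC sample and at 0 in all AM samples. The strand setting of the counting was not given in the sources used here, so reads of such pairs, and of *Rbpj* and its processed pseudogenes, may be shared.

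The rest of the pathway was followed with a list of 63 further Notch genes, covering other ligands and receptors, proteases, glycosyltransferases, ubiquitin ligases, co-factors and Hes and Hey family members. Of those tested, 19 of 52 were higher and 14 lower in KCs when the CRE- cells were compared (median 0.14, against 0.03 over all genes), with a background of 33.3% and 29.9% in these directions. In KCs 1 of 53 was higher and 3 lower in Tim4+ against CRE- cells (median -0.10, background 3.63% and 2.46%). In Tim4- against CRE- cells 4 were higher and 9 lower (median -0.03, background 12.2% and 13.2%). There was 1 higher and 0 lower in Tim4- against Tim4+ cells (median 0.02, background 3.84% and 7.62%), where 5 were lower at an unadjusted p under 0.05 with edgeR and 0 passed as lower with limma-voom or DESeq2. In AMs 4 of 49 were higher and 12 lower in CD11b- than in CRE- cells (median -0.12, background 13.3% and 12.4%). In CD11b+ against CRE- cells 8 were higher and 14 lower (median -0.05, background 22.8% and 20.5%). Between CD11b+ and CD11b- cells 11 were higher and 8 lower (median 0.09, background 19.8% and 16.6%). The change differed between the tissues for 16 of 54, 10 of them with a positive and 6 with a negative difference (median 0.04, background 10% and 9.52%).

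Several of these genes had large differences. *Neurl3*, a ubiquitin ligase of the Neuralized family, was at a mean of 284 CPM in CRE- KCs and 8.47 CPM in CRE- AMs (5.07 log2), and rose in AMs to 26.0 CPM in CD11b- and 50.7 CPM in CD11b+ cells (1.61 and 2.56 log2). *Mfng*, a glycosyltransferase that modifies Notch receptors, fell from 13.5 CPM in CRE- AMs to 3.64 CPM in CD11b- and 1.68 CPM in CD11b+ cells (-1.90 and -3.03 log2), in the same cells in which *Notch1* fell. *Dtx4*, a Deltex ubiquitin ligase, fell from 97.4 CPM in CRE- AMs to 31.99 CPM in CD11b+ AMs (-1.62 log2). *Dtx1* and *Neurl1b* also differed between CRE- KCs and CRE- AMs, at 1.67 against 0.0506 CPM and 0.892 against 5.74 CPM. Of the receptors and ligands outside the 10, *Notch3* was at most at 0.225 CPM and *Jag2* at most at 0.952 CPM in any sample, *Dll3* never had more than 1 count, and *Dll1* had group means of 1.51 CPM in CRE-, 2.84 CPM in Tim4+ and 1.04 CPM in Tim4- KCs and at most 0.0679 CPM in AMs.

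The genes whose log2 levels were most like those of the Notch genes were sought among all genes tested over the 33 samples, which share tissue and depth. *Hes1* was nearest to *St3gal5*, *Marcks* and *Tmem176b* (Pearson's r of 0.98 each). *Maml2* was nearest to *Atp8a1* (0.97), *Aldh2* and *Tat* (0.96 each). *Hey1* was nearest to *Lpcat2* (0.96), *Rbpj* to *Soat1* (0.93), *Jag1* to *Mgst1* (0.93) and *Notch1* to *Fam212a* and *Acy3* (0.92 each). *Dll4* was nearest to *Tmem88* and *Erg* (0.92 each), and 4 of the 22 endothelial markers were among its nearest 50 genes. After centring each KC group over the 18 KC samples, *Notch4* was nearest to *F8* (0.95), *Kdr* (0.93) and *C1qtnf1* (0.91), with 11 of the 22 endothelial markers among its nearest 50, whereas *Dll4* was nearest to *Klf4* (0.84), with 0 of the 22 among its nearest 50.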

How the data were processed

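Bulk RNA-seq of 33 sorted KC and AM samples was analysed from the gene counts the authors deposited. Per the submitters' processing notes and the study's methods, reads were checked with FastQC 0.11.4, trimmed with Trimmomatic 0.35, mapped to mm10 with TopHat2 2.1.0, handled with SAMtools 0.1.18 and counted with HTSeq-count, whose version, annotation and strand setting were not given in the sources used here. The 5 tally rows of each file were left out of library sizes (reads in no gene: 4.52 to 8.9%). Groups came from the source names. The 75 replicate pairs all differed by more than counting noise. The labels do not say that samples of a group came from separate mice, so p-values measure the spread between these samples.

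Genes passing edgeR's filterByExpr were tested with edgeR 4.0.16 (quasi-likelihood, R 4.3.3), in separate fits of the 11 CRE-, 18 KC and 15 AM samples and, for the difference between tissues, all 33. A gene passed at a Benjamini-Hochberg adjusted p under 0.05 over all genes of the fit. For counts at an unadjusted p under 0.05, the share over all genes was not computed. Standard errors are the log2 fold change divided by the square root of F. CPM used TMM factors, and log2 levels a prior count of 0.5. Permutation tests were exact and two-sided. The fits were tested on simulated data. Exon lengths and positions came from GENCODE M21 (GRCm38) and promoters from RefSeq. limma 3.58.1, DESeq2 1.42.0, other filters and normalizations, a replicate block, covariates and leaving out each sample were tried as alternatives. Python 3.11.15 with numpy 2.4.6, pandas 2.3.3 and scipy 1.17.1 made the descriptions.

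The members and gene lists were chosen with earlier results of these data known. All 10 genes were named in every comparison. Other pathway genes were named at an adjusted p under 0.05, an absolute log2 fold change above 1 and a higher group mean of at least 1 CPM, at most 4 per comparison, besides *Notch3*, *Jag2*, *Dll1* and *Dll3*, and the examples above are from these. The nearest genes named were among the 3 with the highest Pearson's r.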

Additional observations from a re-analysis of the deposited data

Results flagged for a closer look

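Among 59 groups in which the highest or lowest sample was compared with the rest of its group, 2 samples stood apart by Dixon's criterion, which chance flags in about 1 of 20 groups. *Notch2* was at 92.9 CPM in KC Tim4+ replicate 2, above the 5 other Tim4+ samples, and *Rbpj* was at 48.3 CPM in KC Tim4- replicate 1, the library of lowest depth, above the 5 other Tim4- samples. For 5 genes the change from CRE- to CRE+ cells was not the same in both tissues, by a test of the difference itself. It was more positive in KCs by 1.95 log2 for *Notch1* and 0.52 for *Notch2*, and more negative by -1.12 for *Rbpj*, -3.00 for *Hes1* and -2.89 for *Hey1*. Tissue, Cre driver and sort gate cannot be told apart in that test.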

How the results depend on the processing

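The number of the 10 genes that passed was 9 between CRE- KCs and CRE- AMs and became 3 when at least 10 counts were required in every sample. With that filter the number passing over all genes went from 7680 to 5888. That filter dropped *Dll4*, *Notch4*, *Hes1* and *Nrarp*, which were at or near 0 in AMs, and *Jag1*, which was in KCs, while *Notch1* stayed in the fit and lost its call (adjusted p = 0.0968). In Tim4+ against CRE- KCs the number of the 10 genes was 1 and became 0 with a fold change above 1 log2 required, with a replicate block and with the endothelial covariate. In Tim4- against CRE- KCs it was 4 and became 2 with the fold change required and 0 with the covariate, and in Tim4- against Tim4+ KCs it was 3 and became 0 with the covariate. With the covariate *Notch4* reversed, to 1.06 and 1.44 log2 in these comparisons. Leaving out each sample in turn gave 8 to 9 genes for KCs against AMs, 0 to 1 for Tim4+ and 3 to 5 for Tim4- against CRE- KCs, 1 to 4 for Tim4- against Tim4+ KCs, 2 to 4 for CD11b- and 4 to 5 for CD11b+ against CRE- AMs, 3 to 4 between them, and 5 in every fit for the difference between tissues. In the same order, the ranges over all genes were 7292 to 7563, 598 to 753, 2656 to 3259 and 1015 to 1763. For the AM comparisons and the difference between tissues they were 2518 to 2918, 4664 to 4837, 3678 to 4118 and 2370 to 2833.

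Over all genes, requiring a fold change above 1 log2 left 4045 of 7680 genes between the tissues, 289 of 761, 1103 of 3169 and 681 of 1433 in the KC comparisons (Tim4+ and Tim4- against CRE-, then Tim4- against Tim4+), 752 of 2972, 1765 of 5004 and 1175 of 4215 in the AM comparisons (CD11b- and CD11b+ against CRE-, then CD11b+ against CD11b-), and 1083 of 2597 for the difference between tissues. The labels give no pairing. In Tim4- and Tim4+ KCs, however, deviations of same-numbered samples from their group means went together. Their mean correlation was 0.155 (lowest 0.0938) against -0.0309 for other numbers, and 6 of 6 samples were nearest to their own number. In CD11b+ and CD11b- AMs these means were 0.0626 and -0.0156, with 4 of 5 nearest. In comparisons with CRE- samples the mean for same numbers was at most 0.0582. Whether same-numbered CRE+ samples share a mouse was not tested, and the main fits treat them as unpaired. With the replicate block 8, 0, 4, 4, 4, 5, 3 and 5 of the genes passed, in the order of the comparisons above. Over all genes, 7370, 998, 3550, 1684, 3151, 5183, 4426 and 2835 passed with the block in that order. With the block, *Hes1* in Tim4+ against CRE- KCs (adjusted p = 0.0640) and *Notch1* between the tissues (0.0984) did not pass, and *Nrarp* in Tim4- against Tim4+ KCs (-1.90 log2, 0.0470), *Rbpj* in CD11b- AMs (0.38 log2, 0.0128) and *Jag1* in CD11b+ AMs (0.37 log2, 0.0361) did. It changed no other call of the 10 genes. Low counts limited *Hes1*, *Dll4*, *Nrarp* and *Notch4* in AMs and *Jag1* in KCs.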
